A study of Mus musculus with 24 samples.

Results

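The skin of mice injected with dihydrotestosterone (DHT, the most potent natural androgen) for 10 days was compared with the skin of saline-injected mice killed on the same day. The comparison holds 8 of the 24 RNA-seq libraries of the series, 4 model and 4 control mice, and was made over the 13039 of 18892 listed genes that reached 1 FPKM in at least 4 of the 24 libraries. FPKM is a fragment count scaled by gene length and by library size. Control mice received daily saline injections with solvent on the skin, and model mice received daily DHT injections with the same solvent on the skin. A further group of the same day received DHT and a topical Hanlianxiang (HLX) extract, and each of the 3 treatments was repeated in mice killed at day 15, with 4 mice in every group. Strain, sex, age, injection route and dose are not given in the sources used here, and each library is taken as 1 mouse. DHT was given by injection, and how far tissues other than skin were exposed is not known here.

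DHT, a steroid hormone, acts on gene transcription in the dermal papilla of the hair follicle, in sebaceous glands and in fibroblasts. In susceptible follicles androgens shorten the growth phase, and a growing follicle is recognised in RNA by the keratins and keratin-associated proteins that its matrix cells make as they turn into the hair shaft and inner root sheath. Skin also carries an innate defence layer of antimicrobial peptides, resident macrophages, complement and acute-phase proteins. Whole skin was measured here, so fewer cells of a type and less RNA per cell cannot be told apart for any gene below.

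The 8 libraries had nearly equal depth, with FPKM totals of 413117 to 437902 and 37119153 to 40256150 reads assigned to genes, recovered from the steps of the FPKM values. Markers of skin were abundant in all 8: the basal keratin Krt5 (491 to 768 FPKM), the suprabasal keratin Krt10 (330 to 955), the sheath keratin Krt71 (1500 to 3660) and Col1a1 (962 to 2550). The 4 Y-linked genes measured (Ddx3y, Uty, Kdm5d and Eif2s3y) summed to 41.6 to 50.6 FPKM in control and 43.2 to 50.3 in model skin, with no gap between groups. Skeletal muscle transcripts summed to 1620 to 2870 FPKM in control and 1900 to 5950 in model libraries, and 0 of 19 tested muscle genes were called by limma (5 at an unadjusted p under 0.05, 0 by voom). Without model replicate 4, 4 muscle genes were called higher.

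A trace of kidney transcripts set these 8 libraries apart from the other 16. Kap, the kidney androgen-regulated protein gene, was at 19.9 to 23.8 FPKM in the control and 14 to 20.5 in the model libraries, and was listed at 0 in all 16 others. Picked after the values were seen, 22 genes were above 0.1 FPKM in all 8 libraries and below a fraction of 0.2 of that level elsewhere, among them Umod, Miox and Slc34a1, all typical of kidney tubules. Their FPKM summed to 38.7 to 45.9 in control, 28.1 to 39.8 in model and at most 0.158 in the other 16 libraries, and made up 0.00885% to 0.0109% of the FPKM total in control and 0.0068% to 0.00947% in model libraries. Of the 7 of them that were tested, Kap, S100g, Umod and Slc34a1 were called lower in model skin, and those 4 are not read as skin genes here. The groups overlapped for Kap, Umod and Slc34a1. The fit took its spread from all 24 libraries, and these 4 genes were at most 0.00993 FPKM in the other 16. Their spread may therefore be understated and their calls too easily reached. Control and model libraries of day 10 both carried the trace, while those of day 15 and the HLX libraries did not, and its part in values set across them was not tested.

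Of the genes tested, 1803 were called at an adjusted p under 0.05, or 13.8% (limma, Benjamini-Hochberg adjustment over all genes tested). They split evenly into 885 higher in model skin, 6.79%, and 918 lower, 7.04%, and the median log2 difference of all tested genes was -0.02. Counts of calls in the gene lists below are to be set beside the shares of 6.79% and 7.04%. With each library scaled to a common FPKM total the split was 1047 higher and 614 lower. Most changes were modest: the median size among called genes was 0.53 on the log2(FPKM + 1) scale, 170 genes rose and 94 fell by more than 1 log2 unit, and 13 and 6 by more than 2. The 4 model and the 4 control values did not overlap for 1624 genes in the upward direction, 12.5% of those tested, and for 1212 in the downward direction, 9.3%. The scatter of all 13039 genes shows that the largest differences are few and mostly upward.

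**Figure D1:**
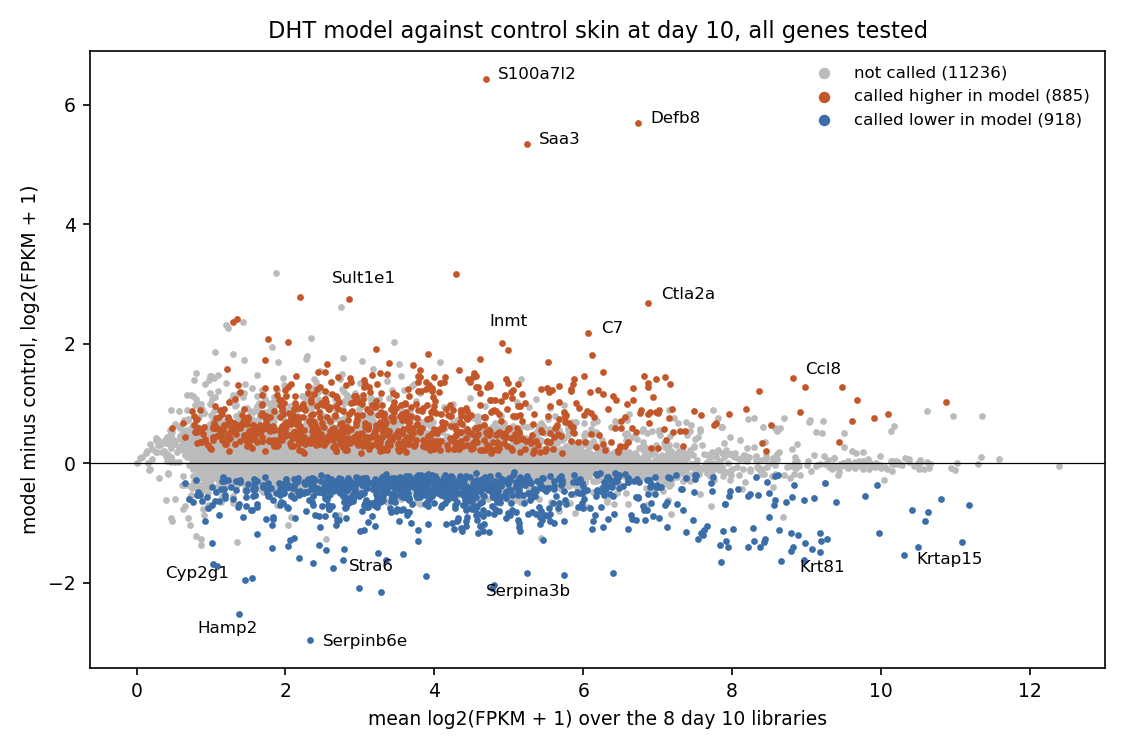
Each point is a gene, placed by its mean log2(FPKM + 1) over the 8 day 10 libraries (x axis) and by the model minus control difference on the same scale (y axis); orange and blue mark the 885 genes called higher and the 918 called lower. S100a7l2, Defb8 and Saa3 stand above 5 on the y axis, while Serpinb6e and Hamp2 lie lowest among the genes named.

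Along the first principal component the 8 libraries formed a graded series rather than 2 tight groups. That component held 62.4% of the variance and placed control replicates 1 to 4 at -20.9, -9.4, -29.5 and -25.6. Model replicates 1 to 4 lay at 2.82, 26.3, 31.6 and 24.6. On this component alone, control replicate 2 and model replicate 1 were the nearest pair across the groups. The second component, with 11.4%, set these 2 apart, at 16.8 for control replicate 2 and -15.2 for model replicate 1. The number of calls followed those mice. Without control replicate 2 there were 2035 calls and without model replicate 1 there were 2405, whereas leaving out any of the other 6 lowered the number, to 1017, 612 and 877 without control replicates 1, 3 and 4 and to 681, 536 and 815 without model replicates 2, 3 and 4. These last 6 are called the outer libraries below. In all 8 of these fits 442 of the 1803 genes stayed called, 228 higher and 214 lower, and a gene is described as robust below where it is among them, which says nothing of other alternatives.

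The 2 largest rises were antimicrobial genes. S100a7l2, which encodes a relative of the antimicrobial S100 protein psoriasin, was at 5.48, 0.546, 1.4 and 1.46 FPKM in control replicates 1 to 4 and at 151, 167, 346 and 372 in model replicates 1 to 4. Defb8, a beta-defensin gene whose peptide belongs to a family that permeabilises bacterial membranes, was at 13.6, 9.99, 19.5 and 13.9 FPKM in control and at 393, 601, 1020 and 1430 in model skin. The groups lay far apart for both genes, and within model skin replicates 3 and 4 were the highest. S100a7l2 differed by 6.43 (SE 0.70, adjusted p = 2.4e-05, limma), a ratio of mean FPKM of 117, and Defb8 by 5.69 (SE 0.56, adjusted p = 7.41e-06), a ratio of 60.4; both were robust. The response was not shared by the whole family. Of 20 antimicrobial S100, defensin and WAP-domain genes tested, 5 rose and 2 fell, with a median log2 difference of 0.37. Leaving out any outer library left between 2 and 4 higher and 1 lower. S100a7a, another S100a7-type gene, went the other way, from 33.8, 26.5, 35.3 and 38.9 FPKM to 26.5, 16.9, 14 and 15.0 (log2 difference -0.89, SE 0.19, adjusted p = 0.0076, robust), and its lowest control equalled its highest model value at the digits given. Another 37 listed genes of these families were below the filter.

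Acute-phase genes rose with them. Serum amyloid A proteins are released in inflammation and carried by high-density lipoprotein, and all 3 genes tested were called higher by limma on log2(FPKM + 1), but none by voom on the recovered reads (adjusted p = 0.0892 for Saa3, 0.139 for Saa1 and 0.191 for Saa2). Saa3, the form made by macrophages and fat cells, was at 5.89, 4.65, 5.07 and 4.3 FPKM in control and at 57.9, 587, 261 and 369 in model skin, with model replicate 1 far below the other 3 but above every control. Its log2 difference was 5.34 (SE 1.0, adjusted p = 0.00363 by limma), and that call held whichever library was left out. Saa1 and Saa2 were at or below 0.218 FPKM in every control library and between 1.95 and 8.59 in model skin. The call for Saa1 (adjusted p = 0.0137) was lost without model replicate 2 (adjusted p = 0.0523), and that for Saa2 (adjusted p = 0.0282) without any 1 of the outer libraries (highest adjusted p 0.089). Hp, the haptoglobin gene, whose protein binds free hemoglobin, went from 358, 433, 186 and 377 FPKM to 736, 647, 1040 and 751, with no overlap (log2 difference 1.27, SE 0.27, adjusted p = 0.00628, robust). Lcn2, the siderophore-binding lipocalin, was higher in all 4 model libraries (7.55 to 37.2 against 2.75 to 6.84 FPKM) and was not called in the main fit (log2 difference 2.03, SE 0.88, adjusted p = 0.123). It was called with only the 8 compared libraries fitted (adjusted p = 0.0219, limma) but not by voom (0.371).

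Serpins, inhibitors of serine proteases, moved in both directions within single gene clusters. In the Serpina3 cluster 4 of 9 tested genes rose and 1 fell, with 2 higher without model replicate 3. Serpina3m went from 2.51, 3.9, 1.82 and 4.12 FPKM to 7.55, 9.99, 11.1 and 10.7 (log2 difference 1.44, SE 0.29, adjusted p = 0.00504) and Serpina3n, an inhibitor of granzyme B, from 50.7, 61.8, 24.9 and 49.2 to 89.8, 149, 126 and 164 (log2 difference 1.52, SE 0.34, adjusted p = 0.0084). Serpina3b fell instead, from 70, 76.2, 58.1 and 80.8 to 13.4, 15.9, 23.8 and 25.8 FPKM (log2 difference -1.84, SE 0.27, adjusted p = 0.000714). All 3 genes were robust and had no overlap. The Serpinb6 cluster held the largest fall of all tested genes by log2 difference. Serpinb6e was at 13, 14.8, 11.4 and 13.2 FPKM in control and at 0.343, 0.834, 0.665 and 1.64 in model skin (log2 difference -2.95, SE 0.25, adjusted p = 7e-07), while its neighbour Serpinb6a rose from 96.0 to 128 FPKM in control to 169 to 201 in model skin (log2 difference 0.75, SE 0.15, adjusted p = 0.00482), both robust. How reads that match more than 1 gene of a cluster were counted is not known here, and the per-gene values carry that uncertainty.

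**Figure D2:**
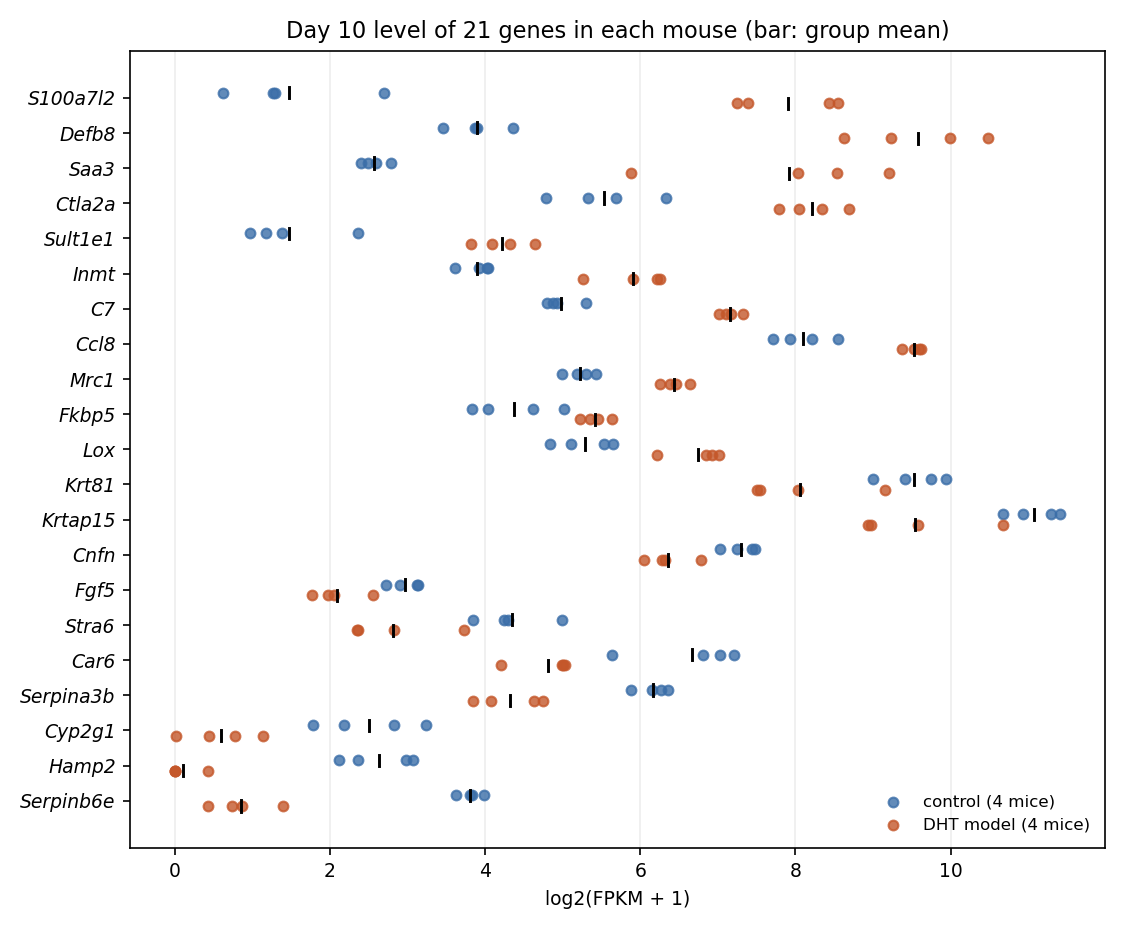
The level of 21 genes, as log2(FPKM + 1) on the x axis, in each control (blue) and DHT model (orange) mouse of day 10, with a black bar at each group's mean. The groups do not overlap for S100a7l2, Defb8, Saa3, C7 or Serpinb6e, while for Krt81 the highest model mouse (568 FPKM, replicate 1) lies above the lowest control mouse (510 FPKM, replicate 2).

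Genes of iron handling moved in both directions. Hepcidin is the hormone that closes the iron exporter ferroportin. Hamp2 is 1 of the mouse hepcidin genes, and whether its own product acts on ferroportin was not tested. Hamp2 was at 3.33, 4.13, 7.44 and 6.93 FPKM in control skin, at 0.354 in model replicate 1 and listed at 0 in the other 3 model libraries (log2 difference -2.53, SE 0.21, adjusted p = 7e-07, robust). Of 15 iron genes tested, 4 fell and 4 rose. The falls were Hamp2, the duodenal-type ferric reductase Cybrd1 (19.3, 15.4, 30.7 and 19.5 against 14.2, 9.93, 7.88 and 7.7 FPKM, adjusted p = 0.0045), the copper ferroxidase Hephl1 (adjusted p = 0.00559) and ferroportin itself, Slc40a1 (adjusted p = 0.0111; 0.0502 without model replicate 3). For Slc40a1 the groups overlapped through control replicate 2 (85.6 FPKM) and model replicate 1 (90.6), as they did for Hephl1 (35.8 and 38.7). The rises were the plasma ferroxidase ceruloplasmin, Cp (7.5, 6.85, 5.81 and 6.03 against 14.6, 15.7, 16.4 and 15.7 FPKM, adjusted p = 0.0077, robust), transferrin, Trf (84.1 to 129 against 178 to 234, adjusted p = 0.0116), the endosomal reductase Steap3 (adjusted p = 0.0094) and the ferritin light chain Ftl1 (adjusted p = 0.0308), all by limma; the call for Ftl1 was lost without any outer library (highest adjusted p 0.0994). Tfrc, the transferrin receptor, was at 27.2 to 44.2 FPKM in control and 24.3 to 36.5 in model skin and was not called.

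Other large falls were seen in epithelial and enzyme genes. Cyp2g1, a cytochrome P450 gene, was at 3.53, 6.13, 8.46 and 2.44 FPKM in control and at 0.0139, 0.362, 0.723 and 1.2 in model skin (log2 difference -1.91, SE 0.26, adjusted p = 0.000378). Car6, the secreted carbonic anhydrase, went from 111, 48.8, 147 and 129 FPKM to 31.2, 31.6, 17.5 and 30.7 (log2 difference -1.86, SE 0.32, adjusted p = 0.00274). Atp12a, the non-gastric proton pump, was at 8.08 to 26.9 FPKM in control and 3.8 to 5.54 in model skin (adjusted p = 0.00916). Each of the 3 was robust and without overlap, and control replicate 2 was the lowest control for Car6 and Atp12a. Simple-epithelium and mammary markers fell in part, with list sums of 89.1 to 122 FPKM in control and 65.1 to 87.1 in model skin. Of 7 tested, 4 were called lower, Krt18 among them (2.1 to 8.22 against 1.25 to 2.72 FPKM, adjusted p = 0.00368). The other 3, Epcam, Elf5 and Csn3, lost their call without control replicate 3 or 4 or model replicate 2 or 3 (highest adjusted p 0.165), and Csn3 was not called by voom (adjusted p = 0.0882). In numbers, 1 or 2 of the 4 stayed called without any outer library.

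Hair shaft genes fell. Of 55 keratin-associated protein genes tested, which cross-link the keratin filaments of the shaft, 33 were called lower and 0 higher, with a median log2 difference of -0.91; 24, 31, 27 and 25 were called lower without control replicates 1 to 4 in turn and 42, 23, 15 and 19 without model replicates 1 to 4. Krtap15 was at 2510, 1640, 2730 and 1950 FPKM in control and at 1630, 761, 487 and 504 in model skin (log2 difference -1.54, SE 0.28, adjusted p = 0.00302, robust). The highest model mouse, replicate 1, almost reached the lowest control mouse, replicate 2. Of 7 type I and 7 type II hair shaft keratins, 5 and 6 were called lower, with medians of -1.11 and -1.4. Krt81, a cortex keratin, was at 859, 510, 979 and 679 FPKM in control and at 568, 260, 185 and 180 in model skin (log2 difference -1.47, SE 0.27, adjusted p = 0.00359, robust).

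The 14 hair shaft keratins tested differed in size of change, from -0.39 to -1.47. In 9 of them it lay between -1.11 and -1.47: Krt31 (-1.11), Krt87 (-1.21), Krt34 (-1.30), Krt33a (-1.31), Krt86 (-1.39), Krt33b (-1.4), Krt83 (-1.43), Krt84 (-1.45) and Krt81 (-1.47), each with an adjusted p at or below 0.00888 (limma) and each robust. Krt36 (-0.71, SE 0.22, adjusted p = 0.0374) and Krt85 (-0.65, SE 0.18, adjusted p = 0.025) were called with smaller differences. The call for Krt36 was lost without any outer library (highest adjusted p 0.134), and that for Krt85 without control replicate 3 or model replicate 2, 3 or 4 (highest adjusted p 0.104). The remaining 3 were not called. Krt35, an early keratin of the matrix, was at 290, 306, 427 and 298 against 331, 219, 211 and 221 FPKM (log2 difference -0.43, SE 0.17, adjusted p = 0.0917), the cuticle keratin Krt82 at 78.2 to 102 against 60.8 to 95.0 (-0.39, adjusted p = 0.2) and Krt32 at 109 to 153 against 86.5 to 134 (-0.41, adjusted p = 0.152). Krt40, a hair keratin outside these lists, was not called either (-0.61, SE 0.23, adjusted p = 0.0807). Differences between keratins were not tested. Cell division genes, active in the matrix, did not pass the test: 0 of 30 cell cycle genes were called by limma (1 at an unadjusted p under 0.05, 0 by voom) and the median was -0.11. Mki67 was at 41.3 to 43.1 FPKM in control and 32.2 to 40.4 in model skin, lower in every model mouse without passing the main test (log2 difference -0.25, SE 0.16, adjusted p = 0.308). Fitted on the 8 compared libraries alone, Mki67 was called lower (adjusted p = 0.0375, limma).

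**Figure D3:**
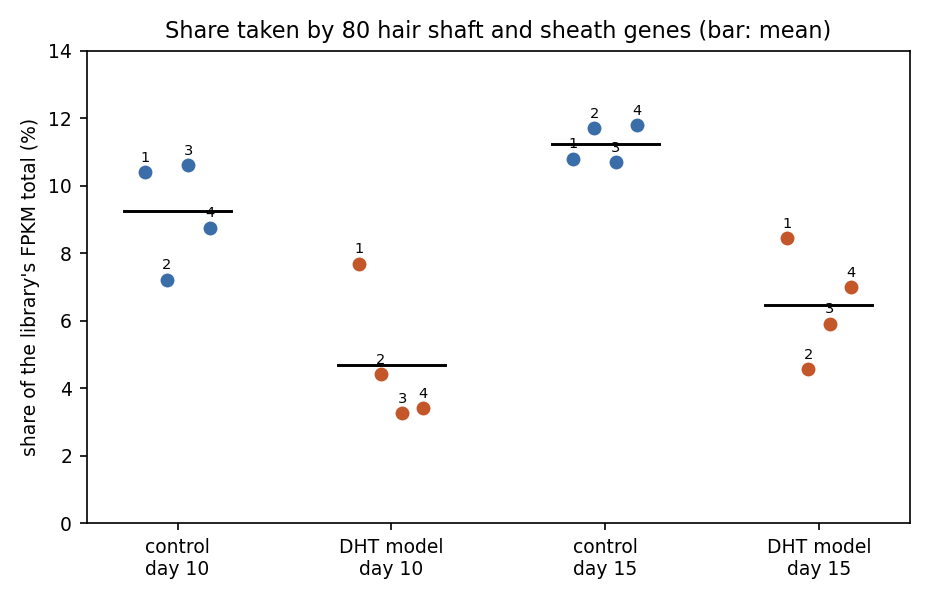
The share of each library's FPKM total taken by 80 hair shaft and inner root sheath genes (y axis, percent), for control and DHT model mice of both days; numbers are replicates and bars are group means. At day 10 model replicate 1 (7.69%) lies above control replicate 2 (7.22%), and at day 15 all 4 model mice lie below all 4 control mice.

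The inner root sheath, which moulds the growing shaft, fell as well: 9 of 10 genes tested were called lower, with a median of -0.74, and 4, 4 and 5 without control replicate 3, model replicate 3 and model replicate 4. Tchh, trichohyalin, was at 2250, 1420, 2880 and 2370 FPKM in control and at 1640, 1100, 896 and 922 in model skin (log2 difference -0.97, SE 0.22, adjusted p = 0.00863), and Krt72 and Krt26 differed by -1.13 and -1.17. In sum, the 80 shaft and sheath genes took 10.4%, 7.22%, 10.6% and 8.76% of the FPKM total in control and 7.69%, 4.41%, 3.25% and 3.4% in model skin. The groups overlapped through control replicate 2 and model replicate 1 only. Among 13 transcription factors of the hair matrix, 6 were called lower (median -0.51), 2 without control replicate 3 or model replicate 3 or 4 and 3 without control replicate 4 or model replicate 2. Foxn1, which drives keratin genes in the precortex, was at 42.3, 35.5, 52.5 and 42.2 against 37.7, 22.3, 17.6 and 18.4 FPKM (log2 difference -0.87, SE 0.20, adjusted p = 0.00934), and Prdm1 at 8.89 to 12.3 against 5.71 to 9.06 (-0.65, adjusted p = 0.0081), both robust. The calls for Ovol1 and Foxq1 were lost without control replicate 3, model replicate 3 or model replicate 4 (highest adjusted p 0.0851), and Hoxc13, Gata3 and Trps1 were not called. FPKM values are shares, so a fall in an abundant class raises the others; scaled to the total outside these 80 genes, 755 genes were called higher and 913 lower.

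Genes of the follicle's signals were called in some lists and not in others, beside 13.8% called among all tested genes. By limma 0 of 18 dermal papilla genes (median 0.075) and 0 of 9 Hedgehog pathway genes were called, with 4 and 2 at an unadjusted p under 0.05 and 0 by voom; Shh itself, made by matrix cells, was at 4.73 to 7.12 FPKM in control and 6.33 to 6.86 in model skin. Of 12 Wnt ligands, 1 was called: Wnt3 at 7.72, 5.59, 11.3 and 8.18 against 5.86, 4.5, 3.63 and 4.59 FPKM (log2 difference -0.68, SE 0.18, adjusted p = 0.0182), a call lost without control replicate 3 or model replicate 2 or 3 (highest adjusted p 0.0808). Wnt10b was at 7.0 to 8.71 against 6.94 to 8.36 FPKM. Of 10 Wnt target genes 3 were called lower, Tcf7 (-0.48, adjusted p = 0.0127), Lef1 (-0.55, adjusted p = 0.0338) and Nkd1 (-0.42, adjusted p = 0.0401). None of the 3 kept its call without control replicate 3 or without model replicate 3 (adjusted p between 0.0537 and 0.166). Among 11 Wnt inhibitors, Sfrp2, a secreted decoy receptor, was called higher, from 8.04, 6.87, 9.62 and 5.25 to 21.4, 34.3, 21.1 and 14.6 FPKM with no overlap (log2 difference 1.46, SE 0.38, adjusted p = 0.0171; 0.0555 without control replicate 4 and 0.0671 without model replicate 2). Dkk1, an androgen-induced Wnt inhibitor of the human dermal papilla, was below the filter, at most 0.201 FPKM in the 8 libraries.

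Fgf5, the growth factor that ends the growth phase of the hair cycle, was lower in model skin. It was at 6.47, 5.63, 7.75 and 7.82 FPKM in control and at 4.91, 3.16, 2.4 and 2.95 in model skin, with no overlap (log2 difference -0.88, SE 0.20, adjusted p = 0.00888, robust). Fgf22 fell by 0.68 on the log2 scale (adjusted p = 0.0178, lost without control replicate 3 or model replicate 3, highest adjusted p 0.0808), and the receptor gene Fgfr1 differed by 0.52 (adjusted p = 0.0189; reaching 0.0775 without control replicate 3 or model replicate 2 or 3). In the BMP pathway, which holds stem cells quiescent and shapes the shaft, 3 of 15 genes were called. The antagonist Chrd rose from a low level, 0.303 to 0.549 against 0.989 to 1.24 FPKM (log2 difference 0.53, SE 0.11, adjusted p = 0.00545, robust). Bmp2 was at 7.54 to 11.9 against 4.48 to 7.49 FPKM (-0.69, adjusted p = 0.0133; 0.0566 without control replicate 3 and 0.0583 without model replicate 3), and the call for the inhibitory Smad7 was lost without any outer library (highest adjusted p 0.131).

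TGF-beta signals, which promote regression of the follicle and matrix deposition in the dermis, leaned upward, with 3 of 9 genes called higher, 0 lower and a median of 0.40, but 1 without control replicate 3 or model replicate 2, 3 or 4. Tgfb2 was at 3.93, 4.55, 3.55 and 3.98 FPKM in control and at 5.54, 6.74, 6.74 and 6.19 in model skin (log2 difference 0.55, SE 0.12, adjusted p = 0.0084, robust). The receptor Tgfbr2 was at 34.4 to 45.5 against 60.6 to 81.0 FPKM (0.78, SE 0.22, adjusted p = 0.0245) and Ltbp1, which stores the latent ligand, at 5.03 to 7.69 against 7.31 to 9.51; both lost their call in 5 of 8 fits, without control replicate 3 and model replicates 2, 3 and 4 in each case (highest adjusted p 0.102). Tgfb1 had no overlap (14.5 to 18.8 against 23.1 to 26.2 FPKM) and was not called (log2 difference 0.59, SE 0.20, adjusted p = 0.0574). Igf1, a growth-phase factor of the dermal papilla, was at 11.6 to 14.8 against 13.7 to 16.5 FPKM and was not called, and Igf2 rose by 0.44 from under 1 FPKM (adjusted p = 0.0125; 0.0567 without model replicate 3).

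Steroid metabolism genes were called in both directions. Srd5a1, the 5-alpha reductase that makes DHT from testosterone, was slightly lower in every model mouse, 9.44 to 10.3 against 10.4 to 12.1 FPKM, and was not called (adjusted p = 0.242), and Srd5a2 was at most 0.179 FPKM. Of 15 genes of steroid metabolism and response, 3 rose and 1 fell, beside 6.79% and 7.04% of all tested genes. Sult1e1, which inactivates estrogens by sulfation, was at 0.962, 1.26, 4.15 and 1.62 FPKM in control and at 24.1, 16, 19.0 and 13.1 in model skin (log2 difference 2.74, SE 0.50, adjusted p = 0.00346, robust). Hsd11b1, which regenerates active glucocorticoid, was at 10.0, 13.4, 5.33 and 12.6 against 21.1, 23.2, 23.1 and 21.9 FPKM (log2 difference 1.11, SE 0.21, adjusted p = 0.00387, robust). Neither gene had overlapping groups. Hsd17b11 was higher (adjusted p = 0.0206; at most 0.071 without any outer library), and the cholesterol sulfotransferase Sult2b1 was lower, 22.1 to 26.6 against 16.8 to 19.2 FPKM (log2 difference -0.44, SE 0.09, adjusted p = 0.00746, robust).

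Steroid receptor targets moved in both directions. Fkbp5, a chaperone gene induced by several steroid hormones, was at 13.2, 23.6, 15.4 and 31.4 FPKM in control and at 36.4, 40, 42.9 and 48.8 in model skin, with no overlap and a wider spread among controls (log2 difference 1.04, SE 0.24, adjusted p = 0.0109, robust). Tsc22d3, the glucocorticoid-induced leucine zipper, was at 38.6, 45.7, 32.3 and 39 against 47.9, 71.4, 71.9 and 72.3 FPKM (0.74, SE 0.17, adjusted p = 0.0104, robust), and Zbtb16 and Klf9 were called higher less firmly (adjusted p = 0.027 and 0.0302), both lost without control replicate 1 or 3 or model replicate 2, 3 or 4 (highest adjusted p 0.116). Tmprss2 and Slc45a3, known as androgen-induced genes of the prostate, were lower in model skin, Tmprss2 at 4.27, 1.26, 2.6 and 3.22 against 1.21, 1.01, 0.601 and 1.14 FPKM (-0.89, SE 0.20, adjusted p = 0.00935) and Slc45a3 by -0.66 (adjusted p = 0.0084), both robust. In all, 4 of 18 targets rose and 3 fell, with a median of 0.19, and 2 rose without control replicate 1 or 3 or model replicate 2, 3 or 4. Inmt, an N-methyltransferase gene, was at 15.3, 11.2, 14.1 and 15.5 against 75.3, 73.6, 59.1 and 37.4 FPKM (2.01, SE 0.31, adjusted p = 0.0015, robust).

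Macrophage genes rose in DHT-treated skin. Of 16 tested, 13 were called higher and 0 lower, with a median log2 difference of 1.26, and 15 had no overlap; 9 to 13 were called when each library was left out in turn. Adgre1, which encodes the F4/80 antigen, was at 16.5, 15.3, 13.7 and 8.9 FPKM in control and at 30.0, 44.7, 37.2 and 42.4 in model skin (log2 difference 1.46, SE 0.34, adjusted p = 0.0109). Mrc1, the mannose receptor of tissue-resident macrophages, was at 38.3, 42.3, 35.3 and 30.8 against 75.6, 98.5, 82.4 and 86.8 FPKM (1.21, SE 0.19, adjusted p = 0.00191), Folr2 differed by 1.22 and Cd209f by 1.32, all 4 robust. Summed over the list, the level was 759 to 1170 FPKM in control and 1860 to 2600 in model skin. The list of lysosomal genes, active in macrophages but present in all cells, also holds the inhibitor gene Ctla2a. It had 8 of 17 members called higher, falling to 2 without control replicate 3 or model replicate 2, 3 or 4 and to 3 without control replicate 1 or 4. Hexa (1.01, adjusted p = 0.00777 by limma) and Ctla2a stayed called in all 8 fits. Ctla2a, a cathepsin inhibitor gene, was at 39.2, 79.3, 26.6 and 50.7 against 220, 324, 263 and 411 FPKM (2.68, SE 0.50, adjusted p = 0.00363).

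Complement, the protein cascade that opsonises and lyses microbes, rose across its pathways. Of 19 genes tested 16 rose and 0 fell, with a median of 1.26 and 12 to 17 called in the 8 leave-one-out fits. The rise covered the classical pathway (C1qa, C1qb, C1qc, C1s1 and C4b), the alternative pathway (Cfb, C3 and Cfp), the regulator Serping1, the terminal pathway (C6 and C7) and the receptors C3ar1 and C5ar1. C7 was at 28.5, 29.5, 26.8 and 38.3 FPKM in control and at 143, 137, 160 and 128 in model skin (log2 difference 2.18, SE 0.36, adjusted p = 0.00227). C3 was at 39.9, 37.6, 44.2 and 25.5 against 138, 146, 134 and 104 FPKM (1.81, SE 0.35, adjusted p = 0.00397), and Cfb at 17.6, 17.2, 13.7 and 13.8 against 52.1, 75.1, 57.8 and 59.6 (1.90, SE 0.42, adjusted p = 0.00863). All 3 were robust, and none had overlapping groups. The macrophage list shares C1qa, C1qb and C1qc with this one, whereas C7 and C3 are also made by fibroblasts.

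Fewer genes of other leukocytes were called. Csf3r, the neutrophil growth factor receptor, was at 0.57 to 1.04 FPKM in control and 4.14 to 6.45 in model skin (log2 difference 1.72, SE 0.55, adjusted p = 0.0431), and S100a9 at 3.19 to 7.71 against 31.8 to 139 (3.17, SE 0.95, adjusted p = 0.0324). Of 9 neutrophil genes 3 were called and 7 had no overlap, but 0 stayed called without control replicate 1, 3 or 4 or without model replicate 2, 3 or 4, with a highest adjusted p of 0.118 for Csf3r and 0.114 for S100a9, and neither gene was called by voom (adjusted p = 0.144 and 0.232). S100a8 (16.9 to 24.6 against 38.7 to 115 FPKM) was not called in the main fit (adjusted p = 0.182, limma) or by voom (0.365). With only the 8 compared libraries fitted it was called (adjusted p = 0.0208, limma). By limma 0 of 7 T cell, 0 of 2 B cell and 0 of 10 dendritic cell and MHC class II genes were called (0, 0 and 6 at an unadjusted p under 0.05, 0 by voom in each); Cd3e was at 0.91 to 1.99 against 1.09 to 2.08 FPKM, while H2-Eb1 was higher in all 4 model mice (89.8 to 152 against 164 to 226 FPKM, adjusted p = 0.0869). Of 10 mast cell genes 0 rose and 1 fell, although 8 had a positive difference and the median was 0.43. Without model replicate 1, 4 were called higher, and 1 without control replicate 2. The fall was that of the receptor gene Kit (-0.45, adjusted p = 0.0179), which lost its call without model replicate 3 (0.0731) or model replicate 4 (0.0564). Cpa3 was at 15.2 to 31.5 against 19.2 to 41.1 FPKM and was not called. Among 40 chemokines and receptors, 4 rose and 1 fell, beside 6.79% and 7.04% of all tested genes. Of these, 2 rose without control replicate 3 or 4 or model replicate 2 or 3. Calls in this list were thus about as frequent as among all tested genes. Ccl8, a monocyte attractant, was at 296, 374, 209 and 242 FPKM in control and at 662, 782, 738 and 771 in model skin (1.43, SE 0.23, adjusted p = 0.00188, robust), and Cxcr3 rose from 0.264 to 0.469 to 0.929 to 2.16 FPKM (adjusted p = 0.00963, robust).

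Most interferon-stimulated genes were higher in all model mice, but most were not called in the main fit, which takes its spread from all 24 libraries. Of 17 tested, 16 were higher in all 4 model mice than in all 4 controls, the median was 0.99, and 4 were called, of which Oas2 (0.965, 0.469, 1.06 and 0.515 against 2.68, 3.83, 3.04 and 2.49 FPKM, log2 difference 1.20, SE 0.24, adjusted p = 0.00482) and Ifi27l2a (1.4, SE 0.31, adjusted p = 0.00889) were robust; 2 were left without any outer library. Oasl2 and Oas1a were not called without any outer library (highest adjusted p 0.101), nor Oas1a without control replicate 2 (adjusted p = 0.0533), and neither was called by voom (adjusted p = 0.0622 and 0.118). Ifit1 and Isg15 were not called in the main fit (adjusted p = 0.133 and 0.184, limma) or by voom (0.262 and 0.405). Fitted on the 8 compared libraries alone, both were called (adjusted p = 0.0065 and 0.00535, limma), while Cxcl10 was not (0.127). The p200 genes, DNA sensors encoded side by side and induced by interferon, and the inflammatory caspases had 6 of 16 called higher and a median of 0.93 (3 without control replicate 4 or model replicate 2 or 3). Ifi207 was at 10.4, 11.3, 8.99 and 8.45 against 25.2, 31.8, 32.7 and 24.5 FPKM (1.45, SE 0.25, adjusted p = 0.00262) and Ifi205 at 30.7, 32.5, 42.3 and 37.8 against 87.6, 92.9, 109 and 77.7 (1.33, SE 0.25, adjusted p = 0.00348), both robust. Ifi211 rose less firmly (1.24, SE 0.34, adjusted p = 0.0221; at most 0.0723 without control replicate 1 or 4 or model replicate 2 or 3). Because these genes moved together, the bases before their starts were read for the interferon response element, searched as GAAANNGAAA on both strands in the 300 bases from 250 before to 50 after each RefSeq start. It was found in 3.99% of the 27025 genes with such a window in the RefSeq table (build GRCm38.p6), in 8 of the 12 interferon-stimulated genes matched there and in 7 of the 14 p200 and caspase genes. Among all genes called higher with a window, 5.62% held it, and 2.08% of those called lower. Genes with and without the call held it: Ifit1, Ifit3, Isg15 and Bst2 were not called and hold 2 or 3 matches each, whereas Oasl2 and Casp4 were called higher and hold 0, as does 1 of the Ifi203 starts. The 250 bases upstream of 4 genes, chosen because they were called higher and hold a match, are shown, 5′ to 3′ on the gene's strand with the motif in capitals; the series was aligned to GRCm39, a different build. All 4 lie on the minus strand, at chr5:120907526-120907775 (Oas1a), chr1:174031756-174032005 (Ifi205), chr1:173741810-173742059 (Ifi207), chr1:173913047-173913296 (Ifi211).
Oas1a: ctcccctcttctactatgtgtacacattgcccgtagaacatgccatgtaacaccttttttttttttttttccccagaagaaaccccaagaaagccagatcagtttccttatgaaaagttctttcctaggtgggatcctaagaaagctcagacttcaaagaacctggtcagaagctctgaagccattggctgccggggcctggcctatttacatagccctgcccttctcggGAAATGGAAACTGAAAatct
Ifi205: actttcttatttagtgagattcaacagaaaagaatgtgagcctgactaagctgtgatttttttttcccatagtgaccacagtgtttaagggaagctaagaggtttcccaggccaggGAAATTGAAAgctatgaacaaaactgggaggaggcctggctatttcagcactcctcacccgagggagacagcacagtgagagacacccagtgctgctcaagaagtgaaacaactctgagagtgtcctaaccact
Ifi207: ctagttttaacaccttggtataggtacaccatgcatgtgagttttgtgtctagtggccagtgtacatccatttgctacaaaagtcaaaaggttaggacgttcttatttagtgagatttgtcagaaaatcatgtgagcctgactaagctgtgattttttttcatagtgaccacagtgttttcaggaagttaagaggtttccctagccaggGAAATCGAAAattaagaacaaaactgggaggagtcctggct
Ifi211: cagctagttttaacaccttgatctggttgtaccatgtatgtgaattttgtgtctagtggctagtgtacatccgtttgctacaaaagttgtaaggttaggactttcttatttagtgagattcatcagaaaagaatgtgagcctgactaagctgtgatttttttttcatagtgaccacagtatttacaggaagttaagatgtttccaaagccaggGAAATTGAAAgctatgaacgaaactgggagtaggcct
Oas1a holds 2 overlapping matches in this stretch, with first bases 20 and 14 before the start, and the others 1 each. A match describes the letters in the window and not a bound site.

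**Figure D4:**
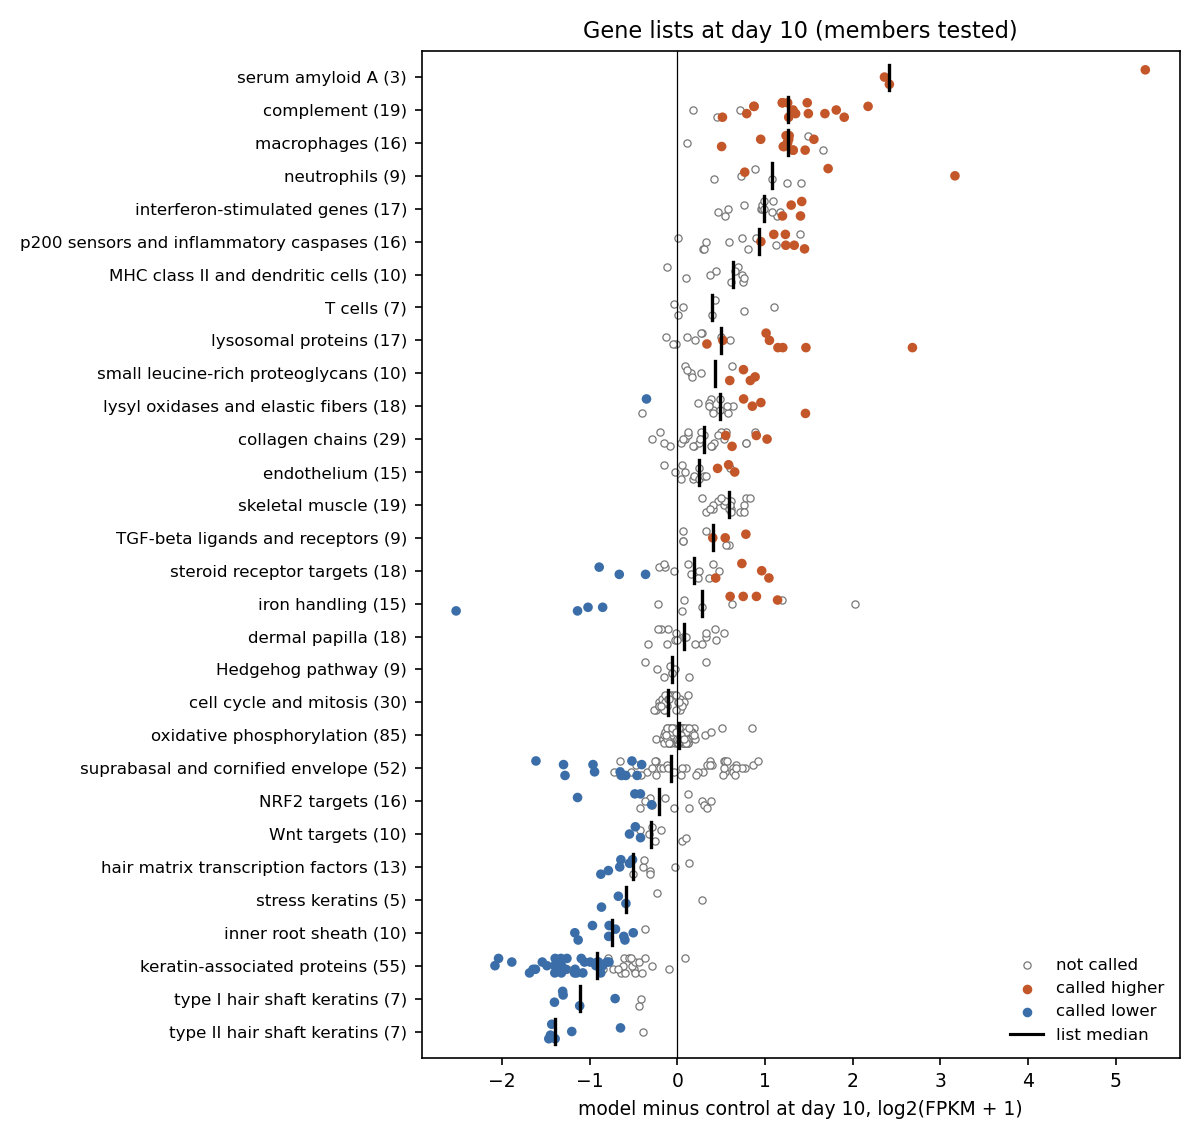
Each point is a tested gene of the list named on the y axis (number of members tested in brackets), at its model minus control difference at day 10 in log2(FPKM + 1); filled points were called, open points were not, and black bars are list medians. Complement and macrophage genes lie to the right (medians 1.26 and 1.26), the hair shaft lists to the left (medians -0.91 to -1.4), and cell cycle and oxidative phosphorylation genes close to 0.

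In the dermis, genes of the collagen network rose in part. Lox, which cross-links collagen and elastin, was at 33.5, 49.4, 27.7 and 45.3 FPKM in control and at 73.2, 120, 114 and 128 in model skin (log2 difference 1.46, SE 0.36, adjusted p = 0.0151; 0.0581 without control replicate 3 and 0.0502 without model replicate 3). Decorin, Dcn, a proteoglycan that binds collagen fibrils, was at 807, 1050, 629 and 837 against 1170, 1550, 1510 and 1630 FPKM (0.83, SE 0.17, adjusted p = 0.00622, robust). Neither gene overlapped between groups. Of 10 small leucine-rich proteoglycans 4 rose and of 29 collagen chains 4 rose, beside 6.79% of all tested genes. In both lists 0 were called lower, and the medians were 0.43 and 0.31. The proteoglycan count was 2 without control replicate 1 or model replicate 2 and 1 without control replicate 3 or model replicate 3. Col3a1 was at 1110, 1640, 1100 and 1460 against 2020, 2970, 2650 and 3170 FPKM (1.02, SE 0.30, adjusted p = 0.0287) and Col1a1 at 962 to 1380 against 1640 to 2550 (0.88, SE 0.31, adjusted p = 0.0599). With only the 8 compared libraries fitted, Col1a1 was called (adjusted p = 0.0107, limma). Collagen calls were sensitive to the libraries: 0 were left without control replicate 3 or model replicate 2, 1 without model replicate 3 or 4, 2 without control replicate 4, and 8 without model replicate 1. Fn1, fibronectin, went from 70.6, 71.0, 72.3 and 55.9 FPKM to 130, 147, 132 and 128 (0.99, SE 0.24, adjusted p = 0.0142, robust), and Mmp27 from 4.09 to 6.73 to 9.69 to 13.5 (0.94, SE 0.16, adjusted p = 0.00274, robust). Prg4, the lubricin gene, rose from under 1 FPKM in every control to 4.44, 29.1, 8.58 and 12.5 (adjusted p = 0.0134; 0.056 without model replicate 2, and 0.0896 by voom).

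Some vessel genes and no fat genes were called. Of 15 endothelial genes 3 were called higher (median 0.24), or 1 without control replicate 3 or model replicate 2 or 3, with Vwf, von Willebrand factor, at 2.91, 2.74, 3.51 and 3.3 against 5.2, 5.62, 5.78 and 5.24 FPKM (0.65, SE 0.16, adjusted p = 0.0118, robust), while Pecam1 was at 23.6 to 28.3 against 28.3 to 32.7 and was not called. Cd34, carried by bulge stem cells and by vessels and fibroblasts, was at 84.8, 92.9, 76.7 and 92.4 against 140, 168, 160 and 150 FPKM (0.82, SE 0.20, adjusted p = 0.0138; 0.0508 without control replicate 3). Of the 13 bulge genes 2 rose and 1 fell (1 rose without any outer library except control replicate 3, which left 0), the last being Sox9 (-0.60, adjusted p = 0.0196; at most 0.0767 without control replicate 1 or 4 or model replicate 2 or 3). Adipocyte genes had 0 of 13 called by limma (1 at an unadjusted p under 0.05, 0 by voom), and their summed level overlapped widely (2080 to 4300 against 2610 to 4760 FPKM). Of 7 erythroid genes tested, 2 were called higher, Hbb-bs and Hbb-bt, and 2 lower, Slc4a1 (adjusted p = 0.0127 by limma, robust) and Ahsp. Ahsp, the chaperone of alpha-globin, went from 9.75, 5.72, 15.0 and 13.8 to 2.93, 3.28, 2.03 and 1.59 FPKM (-1.75, SE 0.24, adjusted p = 0.000355 by limma, robust). The 2 globin calls were lost without any outer library (highest adjusted p 0.157), that of Hbb-bs without model replicate 1 too (adjusted p = 0.052), and that of Hbb-bt under voom (adjusted p = 0.0899).

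Epidermal differentiation was changed at selected genes. Of 52 suprabasal and cornified envelope genes 11 were called lower and 0 higher, with a median of -0.07 and 7, 7 and 7 called lower without control replicates 1, 3 and 4 and 7, 5 and 8 without model replicates 2, 3 and 4. Cnfn, cornifelin, was at 177, 130, 151 and 173 FPKM in control and at 109, 78.8, 65.0 and 76.6 in model skin (log2 difference -0.94, SE 0.15, adjusted p = 0.00211). The small proline-rich envelope genes Sprr1b (15.3 to 24.9 against 5.54 to 10.3 FPKM, adjusted p = 0.0081) and Sprr2h (-1.61, SE 0.23, adjusted p = 0.00063) fell, and so did Tgm3, a transglutaminase of envelope and hair (-1.28, SE 0.24, adjusted p = 0.00363), all 4 robust. The main keratins and Lor were not called; Krt10 was at 330 to 757 against 416 to 955 FPKM. Among the stress keratins, 3 of 5 fell. Krt6a was at 113, 61.4, 100 and 118 against 59.2, 46.2, 49.0 and 54.0 FPKM (-0.87, SE 0.19, adjusted p = 0.0081) and Krt17 at 802, 537, 654 and 707 against 507, 425, 401 and 452 (-0.59, SE 0.13, adjusted p = 0.00772), both robust and both also genes of the outer root sheath. Basal genes had 2 of 14 called lower, Trp63 and Itga3, and neither call held without any outer library (highest adjusted p 0.114).

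The retinoid genes that fell include those of uptake and transport. Stra6, the membrane receptor for retinol-binding protein, was at 17.9, 13.4, 30.7 and 18.6 FPKM in control and at 12.3, 6.12, 4.1 and 4.14 in model skin (log2 difference -1.52, SE 0.25, adjusted p = 0.0022). Crabp2, the retinoic acid carrier, was at 70.5, 40.3, 66.7 and 57.1 against 28.5, 25, 33.3 and 35.4 (-0.90, SE 0.15, adjusted p = 0.00247). The groups did not overlap for either gene, and both were robust. Of the 17 retinoid genes tested 4 fell and 1 rose, the last being the retinaldehyde dehydrogenase Aldh1a1 (17.1 to 40.3 against 41.1 to 52.1 FPKM, adjusted p = 0.0306; reaching 0.126 without control replicate 1 or 3 or model replicate 2, 3 or 4).

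Lipid mediator and redox genes moved in both directions. Hpgds, which makes prostaglandin D2, was at 3.47, 3.18, 2.61 and 2.9 FPKM in control and at 6.69, 6.85, 6.34 and 8.04 in model skin (log2 difference 0.98, SE 0.13, adjusted p = 0.000269, robust). Alox5, the leukotriene-forming lipoxygenase of leukocytes, was at 2.82 to 3.01 against 4.69 to 5.88 FPKM (0.71, SE 0.18, adjusted p = 0.0166; 0.0541 without model replicate 2 and 0.0583 without model replicate 3). Alox12 was lower, 3.4 to 7.67 against 1.47 to 3.19 (-0.91, SE 0.23, adjusted p = 0.0162; 0.0691 without control replicate 3 and 0.0675 without model replicate 3). Of 24 glutathione transferases, Hpgds, which belongs to that family, and Gstt1 were called higher, beside 6.79% of all tested genes. Gstt1 was at 6.53 to 10.9 against 15.5 to 16.6 FPKM (0.79, SE 0.15, adjusted p = 0.00348 by limma, robust). NRF2 target genes had 4 of 16 called lower, 2 without any outer library, led by Gpx2, an epithelial glutathione peroxidase, at 14.6, 6.74, 9.99 and 14.2 against 5.58, 3.72, 3.62 and 4.97 (-1.14, SE 0.21, adjusted p = 0.00363) and G6pdx (-0.42, SE 0.09, adjusted p = 0.00841), both robust. By limma 0 of 19 sebaceous lipid genes and 0 of 85 oxidative phosphorylation genes were called (1 and 5 at an unadjusted p under 0.05, 0 by voom).

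The mice killed at day 15 were other animals and gave a separate measurement of the same difference. At day 15, 552 genes were called higher, 4.23% of those tested, and 856 lower, 6.56%; values did not overlap for 1029 genes upward, 7.89%, and 1608 downward, 12.3%. In the same direction on both days 764 genes were called, 291 higher and 473 lower, which is 42.4% of the day 10 and 54.3% of the day 15 calls, and 1 gene was called in opposite directions. Of the 1803 genes called at day 10, 1769 (98.1%) had the same sign at day 15, against 80.2% of all tested genes. The median difference of the genes called higher at day 10 was 0.60 at day 10 and 0.42 at day 15, and of those called lower -0.47 and -0.40. Genes are selected on day 10 here, so a smaller value at day 15 is partly fixed by that choice. A direct test of the change between days called 0 genes (limma, lowest adjusted p = 0.0632), with 352 at an unadjusted p under 0.05; array weights per library called 66.

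Control levels of some genes differed between the days. Saa3 was at 4.3 to 5.89 FPKM in the day 10 controls and at 377 ± 308 (SD, n = 4) in those of day 15, against 1660 ± 1670 in model skin at day 15 (adjusted p = 0.217). Defb8 was at 83.3 ± 42.2 FPKM in day 15 controls and 668 ± 415 in model skin (log2 difference 2.92, adjusted p = 0.00614), and S100a7l2 at 12.9 ± 4.95 and 231 ± 179 (3.84, adjusted p = 0.00496), all by limma. Of the 19 complement genes 3 were called at day 15, and C3 differed by 0.43 (adjusted p = 0.418). Of 16 macrophage genes 5 were called higher, Mrc1 among them (0.85, adjusted p = 0.0133). On the falling side, Serpinb6e was at 4.97 ± 1.64 and 0.174 ± 0.112 FPKM (-2.31, adjusted p = 0.000102), Hamp2 was at 1.85 ± 1.13 and listed at 0 in all 4 model mice, and Fgf5 differed by -0.88 on both days (adjusted p = 0.0129 at day 15). The 80 hair genes took 10.7% to 11.8% of the FPKM total in control and 4.57% to 8.44% in model skin, with no overlap, and 28 of 55 keratin-associated protein genes were called lower.

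**Figure D5:**
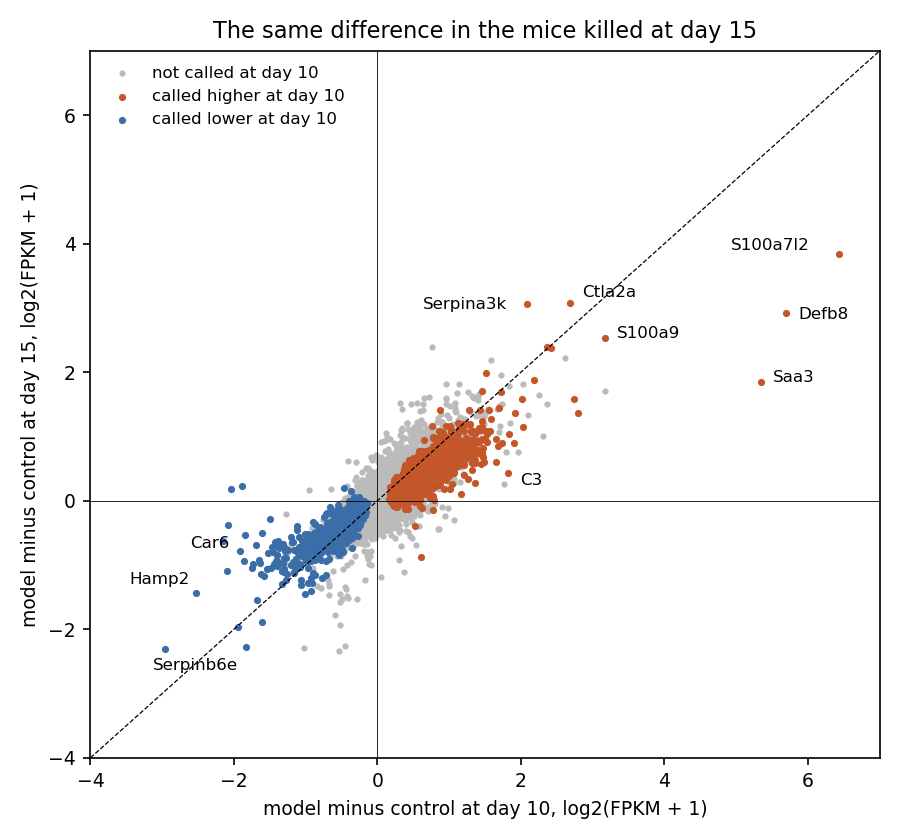
Each point is a gene, with its model minus control difference at day 10 (x axis) and at day 15 (y axis), both in log2(FPKM + 1); colours mark the day 10 calls and the dashed line marks equal differences. Most called genes keep their sign, and S100a7l2, Defb8 and Saa3 lie below the line, with larger differences at day 10.

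Values of the mice given DHT with topical HLX extract for 10 days are given for 9 genes described above, chosen after their values were seen; no test against control or model skin was made, as those libraries are shared. In these mice (mean ± SD, n = 4) Defb8 was at 916 ± 195 FPKM, Serpinb6e at 0.779 ± 0.309, Hamp2 at 0.0584 ± 0.117 and Mrc1 at 85.6 ± 11.6, beside means in model skin of 861, 0.87, 0.0884 and 85.8 and in control skin of 14.2, 13.1, 5.46 and 36.7. Krtap15 was at 1420 ± 242 FPKM (2210 in control and 844 in model skin), Inmt at 25.3 ± 7.14 (14 and 61.4) and Car6 at 56.1 ± 18.1 (109 and 27.7). Sfrp2 was at 8.54 ± 3.09 FPKM (7.44 in control and 22.8 in model skin) and Gstt1 at 8.22 ± 1.32 (8.91 and 15.9). The Y-linked sum ran from 28.3 to 45.5 FPKM in these 4 libraries, and its lowest value was below the lowest control value of 41.6.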

How the data were processed

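Whole skin was measured by poly(A) RNA-seq in 24 mice. The authors deposited 1 table of FPKM values per gene, made with fastp, HISAT2 and HTSeq on build GRCm39, per the submitters' processing notes; tool versions are not given in the sources used here. Every value column was mapped to a sample by its label. The 13039 genes with at least 1 FPKM in at least 4 of the 24 libraries were tested on log2(FPKM + 1), which understates changes of low genes, with limma 3.58.1 in R 4.3.3 (1 mean per group over all 24 libraries, trend and robust variance) and Benjamini-Hochberg adjustment at 0.05. FPKM steps gave whole reads for 100% of the 18715 genes above 0 (tolerance 0.02 reads); limma's voom on those reads called 808 genes higher and 892 lower. Each library was taken as 1 mouse, per the series' design. The p-values of the main fit rest on the spread between mice within groups over all 24 libraries, not only over those compared.

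Members and gene lists were chosen with earlier results of these data known. Named genes were, by rule, the 15 largest called rises and the 15 largest called falls with no overlap and at least 2 FPKM in the higher group, up to 4 called genes per list, the gene with the smallest p in a list with none, and a fixed panel; others named were chosen after their values were seen. Alternatives were another pseudocount, filter, scaling, set of libraries, library weights, a replicate block, voom, and leaving out each replicate. Scripts were tested on simulated data. Promoter windows came from RefSeq, build GRCm38.p6. Some named genes are not reported here.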

Additional observations from a re-analysis of the deposited data

Results flagged for a closer look

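Among 372 checks of a named gene within a group of 4 mice, 29 values in 27 genes stood apart from the other 3 by a gap above Dixon's critical share of the group's range; chance alone gives about 1 in 20. Model replicate 1 held 8 of them and model replicate 2 held 5. In control replicate 1, Krtap19-5 was at 1040 FPKM (others 634 to 667), Cxcr3 was at 0.469 FPKM (others 0.264 to 0.298). In control replicate 2, Sprr2h was at 6.63 FPKM (others 12.4 to 13.5), Slc45a3 was at 6.92 FPKM (others 11 to 11.8), Wfdc17 was at 130 FPKM (others 62.1 to 66.6). In control replicate 3, Lef1 was at 24.8 FPKM (others 19.7 to 20.3), Fgf22 was at 20.1 FPKM (others 16.6 to 17), Il6ra was at 5.59 FPKM (others 6.98 to 7.08), Has2 was at 3.04 FPKM (others 1.98 to 2.04). In control replicate 4, Krtap20-2 was at 3.98 FPKM (others 2.15 to 2.42), Folr2 was at 23.3 FPKM (others 33 to 33.9), Oas1a was at 1.69 FPKM (others 2.25 to 2.35), Fn1 was at 55.9 FPKM (others 70.6 to 72.3). In model replicate 1, Hamp2 was at 0.354 FPKM (the others listed at 0), Smad7 was at 6.78 FPKM (others 4.37 to 4.57), Tsc22d3 was at 47.9 FPKM (others 71.4 to 72.3), Il6ra was at 8.41 FPKM (others 11.9 to 12.3), Krt18 was at 2.72 FPKM (others 1.25 to 1.5), Elf5 was at 29.1 FPKM (others 16.2 to 16.7), G6pdx was at 91 FPKM (others 70.1 to 73.6), Dhrs9 was at 7.5 FPKM (others 4.98 to 5.26). In model replicate 2, Slfn1 was at 10.8 FPKM (others 6.23 to 6.53), Plac8 was at 36.2 FPKM (others 11.4 to 15.3), Chrd was at 1.24 FPKM (others 0.989 to 1.03), Hbb-bt was at 27.3 FPKM (others 17.9 to 18.1), Hbb-bs was at 203 FPKM (others 160 to 164). In model replicate 3, Car6 was at 17.5 FPKM (others 30.7 to 31.6), Has2 was at 5.42 FPKM (others 4.04 to 4.24). In model replicate 4, Stfa2 was at 3.33 FPKM (others 1.1 to 1.41).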

How the results depend on the processing

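Across the alternatives tried, 0 named genes changed direction. Fitting only the libraries compared called 2481 genes at day 10, 1435 of them higher, and at day 15 it called 724 genes, 317 higher and 407 lower. At day 10 that fit changed calls both ways. Among others, Mki67, Lcn2, S100a8 and Col1a1 gained a call, whereas Krt36 (adjusted p = 0.0507, limma) and Krt85 (0.0519) lost theirs. Array weights called 4927 genes at day 10 (2355 higher, 2572 lower), 4592 at day 15 (2471 higher, 2121 lower) and 66 for the change between days. With a common total per library, 473 genes were called lower at day 15. Leaving out each replicate in turn gave 536 to 2405 calls at day 10 (295 to 1153 higher, 234 to 1252 lower), 363 to 2240 at day 15 (132 to 828 higher, 231 to 1412 lower) and 0 to 3 for the change between days. The cause of these shifts was not tested. Of the 190 named genes, 4 lost their call at a pseudocount of 0.1, 16 with no filter, 8 with median-of-ratios scaling, 8 with a common total, 3 with a common total outside the hair genes, 7 with only the compared libraries, 4 with a replicate block and 14 with voom. More lost it when 1 library was left out: 48, 7, 67 and 54 without control replicates 1 to 4 and 3, 64, 74 and 53 without model replicates 1 to 4. Same-numbered mice of day 10 correlated at 0.074, 0.254, -0.186 and -0.066, so the numbers were not taken as pairs; with a replicate block, 886 genes were called higher and 985 lower at day 10 and 530 and 921 at day 15. Read depth was not varied, so its share in the error was not tested.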

Other observations

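Several genes outside the lists had tight groups; they were picked after their values were seen. Ace, the angiotensin-converting enzyme gene, was at 25.3, 26.1, 25.3 and 21.8 FPKM in control replicates 1 to 4 and at 81.5, 82.1, 84.2 and 78.9 in model replicates 1 to 4 (log2 difference 1.69, SE 0.28, adjusted p = 0.0022, limma), and at day 15 it differed by 1.43 (adjusted p = 0.00642). Scn7a, a sodium channel gene, was at 4.04, 3.69, 3.31 and 2.92 against 11.3, 9.66, 11.4 and 8.5 FPKM (1.32, SE 0.17, adjusted p = 0.000269). Serpine2, a thrombin inhibitor gene, was at 13.8, 20.3, 14.2 and 15.2 against 37.6, 41.2, 37.6 and 42.4 FPKM (1.28, SE 0.19, adjusted p = 0.000664). None of the 3 had overlapping groups, and each stayed called whichever of the 8 libraries was left out.

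On the falling side, Gprc5d, a receptor gene of the hair cortex, was at 304, 208, 385 and 287 FPKM in control and at 218, 125, 84 and 88.8 in model skin (-1.27, SE 0.23, adjusted p = 0.00348). Dusp14, a phosphatase gene, was at 56.7, 41.3, 51.4 and 51.4 against 36.8, 24.3, 16.9 and 19 FPKM (-1.07, SE 0.20, adjusted p = 0.00348). For Gprc5d the groups overlapped through control replicate 2 and model replicate 1, and for Dusp14 they did not.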
